A study of Mus musculus with 5 samples.

Results

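Cxcl12 and Vcam1 are a pair of stromal genes whose products hold blood cells in the bone marrow. They were taken as every probe set annotated to either gene in the deposited table of a mouse array study, which gave 2 genes of the 2190 named there. Each had 1 probe set in this table, 1417574_at for Cxcl12 (Entrez gene 20315) and 1451314_a_at for Vcam1 (Entrez gene 22329). An identifier ending in _a_at marks probes shared by transcript variants of 1 gene. The study profiled primary cultures of mesenchymal stem cells (MSC) from mouse bone marrow, the adherent stromal cells that support blood formation. It compared 3 arrays of MSC cultured alone with 2 arrays of MSC kept for 48 h in a transwell, a chamber with a porous membrane, with T cells activated by antibodies to CD3 and CD28, at 10 T cells for each MSC. All 5 arrays were labelled as biological repetitions, and all cells were grown in the same commercial medium (Mesencult). The groups rest on the sample titles and descriptions, since the treatment text of the records for MSC alone also describes the co-culture. The labels give no genotype, strain or age, and do not say whether marrow was pooled. The labels do not say whether a repetition was a separate animal, so p-values measure the spread between these samples, some of which may be technical.

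CXCL12 is a chemokine secreted by marrow stromal cells. It binds CXCR4 on blood progenitors, B cell precursors and other leukocytes, and loss of this signal lets progenitors leave for the blood. VCAM1 is an adhesion molecule on the surface of stromal, endothelial and some myeloid cells, bound by the integrins made of the alpha4 chain with beta1 or beta7. Its transcription is raised by NF-kB and interferon regulatory factors after inflammatory cytokines. In marrow both genes mark the stromal cells around sinusoids, and both are used to identify them.

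Of the 2 genes 1, Cxcl12, was matched in the RefSeq promoter table, and Vcam1 was not. The Cxcl12 promoter is shown as the sequence next to the start of the gene that fell. The sequence runs from 250 bases before the start site to 50 after it, on the plus strand of GRCm38.p6 at chr6:117168285-117168584, and capitals mark the GC box GGGCGG on either strand.

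Cxcl12: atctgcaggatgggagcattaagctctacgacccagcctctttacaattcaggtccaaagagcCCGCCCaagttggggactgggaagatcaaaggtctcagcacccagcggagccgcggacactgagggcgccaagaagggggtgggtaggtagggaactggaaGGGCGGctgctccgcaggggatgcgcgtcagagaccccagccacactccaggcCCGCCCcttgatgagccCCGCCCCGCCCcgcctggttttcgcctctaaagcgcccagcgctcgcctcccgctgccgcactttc

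The GC box, the letters bound by Sp1-type factors, occurred 5 times, of which the last 2 share a base. The first base of each lay 187, 86, 33, 16 and 11 bases before the start site. At least 1 GC box was present in 35.7% of the 32851 RefSeq promoters of the same length, and 64.7% of the bases of the Cxcl12 window were G or C against a median of 52.7%. A search of both strands found 0 matches to the kappa B consensus, to the interferon-gamma element TTCNNNGAA, to the interferon-stimulated core GAAA NN GAAA (N is any base), to the hypoxia core ACGTG and to TATAAA in this window. These motifs were in 8.46%, 8.3%, 3.44%, 19.6% and 13.6% of all promoters. A match of letters is a description, not a binding site, and the array did not measure binding.

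Values are log2 expression from RMA, in which a difference of 1 is a doubling. Every one of the 3373 probe sets in the table had groups that did not overlap, by at least 0.34 on the log2 scale, and 100% were called by limma at an adjusted p of 0.05, with 51.3% lower and 48.7% higher in co-culture. The table therefore appears to be selected on the comparison made here, by a rule not given in the sources used here. A call of Cxcl12 or Vcam1 adds nothing to its presence in the table. The levels, the sizes of the differences and their spread are given as the measurements, and the errors may be too small. Median log2 values were between 7.61 and 7.64 in MSC alone and between 7.42 and 7.50 in co-culture. The shift of the medians was -0.16.

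Cxcl12 was lower in both co-culture arrays than in any array of MSC alone. Its log2 expression was 8.05, 7.99 and 9.74 in MSC alone replicates 1, 2 and 3, against 5.18 in replicate 1 and 4.96 in replicate 2 of co-culture. The groups did not overlap: replicates 1 and 2 of MSC alone lay close together, replicate 3 stood above them, and the co-culture arrays lay within 0.22 of each other. The means were 8.60 ± 0.99 (SD, n = 3) and 5.07 ± 0.15 (SD, n = 2). Cxcl12 fell by 3.52 ± 0.54 (SE) on the log2 scale, an 11.5-fold difference, with an adjusted p of 0.00377 in limma. The 95% confidence interval of the difference ran from -4.85 to -2.20 on the log2 scale, that is from 28.9-fold to 4.59-fold lower. In co-culture the mean of Cxcl12 lay above that of only 13.0% of the probe sets of the table. RMA compresses low values and gives no detection call, so the size of this fold is uncertain.

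Vcam1 moved the other way and with less spread. Its log2 expression was 9.30, 9.36 and 9.04 in the same replicates of MSC alone, and reached 12.07 and 12.21 with T cells present. Both co-culture arrays were higher than every array of MSC alone, and replicate 3 of MSC alone was the lowest of the 5. The means were 9.23 ± 0.17 (SD, n = 3) and 12.14 ± 0.10 (SD, n = 2). Vcam1 rose by 2.91 ± 0.19 (SE), a 7.50-fold difference, with an adjusted p of 0.000488 in limma. The 95% confidence interval of the difference ran from 2.45 to 3.36, that is from 5.47-fold to 10.3-fold higher.

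**Figure D1:**
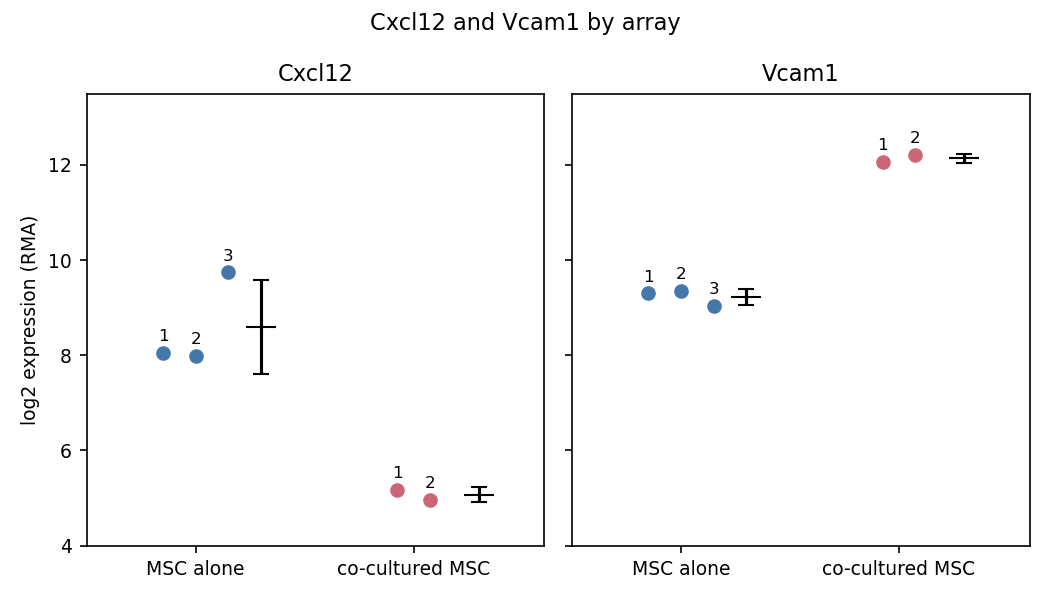
Log2 expression (RMA, vertical axis) of Cxcl12 and Vcam1 in MSC alone (blue, n = 3) and co-cultured MSC (red, n = 2). Points are arrays numbered by replicate, and the bars beside them are the mean ± SD. Cxcl12 lies at 5.18 and 4.96 in co-culture, below all arrays of MSC alone, and Vcam1 at 12.07 and 12.21, above all of them.

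Set array against array, the 6 pairs of a co-culture array with an array of MSC alone gave differences from -4.78 to -2.81 for Cxcl12 and from 2.71 to 3.17 for Vcam1 on the log2 scale. The gap between the nearest arrays of the groups was thus 2.81 for Cxcl12 and 2.71 for Vcam1, against a median gap of 0.74 over all probe sets of the table. By the size of the mean difference Cxcl12 ranked 35 among the 1731 probe sets that were lower, whose median was -1.23. Vcam1 ranked 99 among the 1642 that were higher, whose median was 1.07. By its p Vcam1 ranked 26 of 3373 probe sets and Cxcl12 ranked 531. These ranks place the genes within the selected table only.

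**Figure D2:**
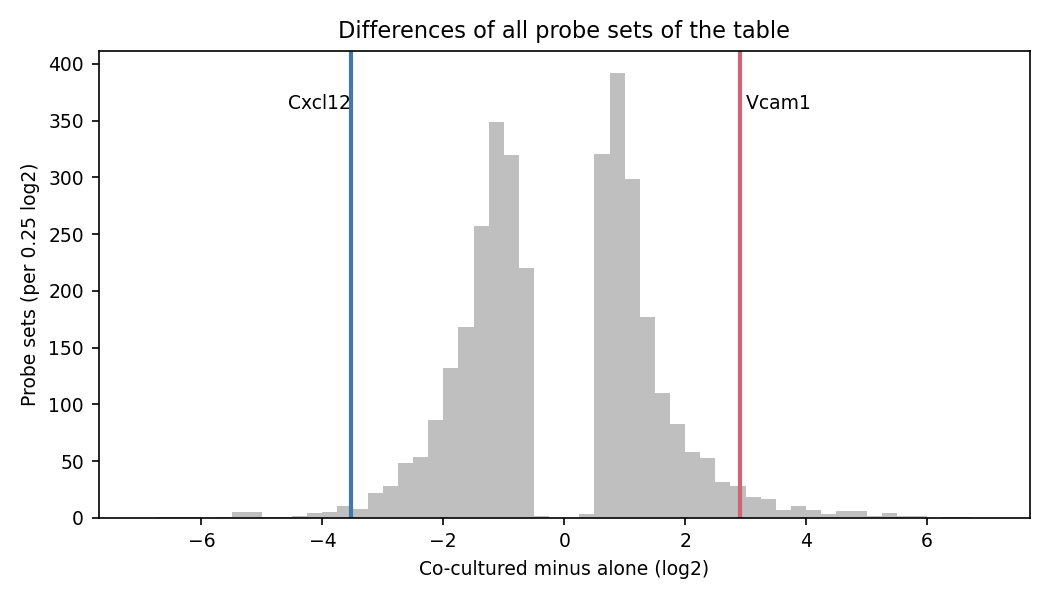
Number of probe sets (vertical axis) by the difference of co-cultured minus alone on the log2 scale (horizontal axis, bins of 0.25), over all 3373 probe sets of the table. The lines mark Cxcl12 at -3.52 and Vcam1 at 2.91, both in the outer parts of the distribution, and few probe sets lie near 0.

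The genes differed in how far the arrays of MSC alone were spread. The SD of Cxcl12 over the arrays of MSC alone, 0.99, ranked 42 of 3373, whereas the SD of Vcam1, 0.17, lay below the table's median SD of 0.21. Replicate 3 of MSC alone exceeded the mean of replicates 1 and 2 by 1.72 for Cxcl12 and was 0.29 below it for Vcam1. An excess of over 1 in replicate 3 occurred in 85 probe sets and a deficit of over 1 in 105, with a median difference of -0.02. Replicate 3 was the highest array of MSC alone in 836 of the 1731 probe sets that were lower in co-culture, Cxcl12 among them. It was the lowest in 821 of the 1642 that were higher, Vcam1 among them. The same counts were 697 and 601 for replicate 1, and 198 and 220 for replicate 2. Without replicate 3 Cxcl12 fell by 2.95 on the log2 scale, or 7.74-fold, and Vcam1 rose by 2.81, or 7.01-fold. The fold of Cxcl12 then lay near that of Vcam1. Over each array left out in turn it was between 7.74 and 14.2 for Cxcl12 and between 7.01 and 7.88 for Vcam1.

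A difference taken within an array cancels any shift of the whole array. Vcam1 minus Cxcl12 was 1.25, 1.36 and -0.70 in MSC alone replicates 1, 2 and 3, and widened to 6.89 and 7.25 with T cells present. The value differed by 6.43 between the groups, which did not overlap. The exact permutation test over the 5 arrays gave a two-sided p of 0.2, the smallest that 3 against 2 arrays can give. This design therefore cannot pass a threshold of 0.05 by that test. Each gene already separated the groups, in opposite directions, so the separation and this p were fixed before the test and add nothing. Every co-culture array thus had a larger value than every array of MSC alone. A constant added to all values of an array leaves these values as they are. Levels of the genes against each other are not compared, since their probes differ.

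The CXCL12 axis was listed as 29 genes for its receptors, proteases, the heparan sulphate proteoglycans that hold the chemokine at the cell surface, and factors known to change it. Of these 5 were in the table, 4 lower and 1 higher, with a median difference of -1.46. All probe sets lower in co-culture had a median of -1.23. Few differences in this table lie near 0, so a median over both directions depends mainly on the share that fell. Without Cxcl12 itself 3 were lower and 1 higher. Of all named genes 51.7% were lower and 48.3% higher. The receptor genes Cxcr4 and Ackr3 and the protease gene Dpp4 were among the 24 not analysed here.

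Besides Cxcl12, the lower genes in the table all encode cell-surface heparan sulphate proteoglycans. The other listed genes of this kind, Sdc4, Gpc3 and Gpc4, were not analysed here. The same holds for the heparan sulphate synthesis genes Ext1, Ext2, Hs2st1 and Ndst1. Gpc6, encoding glypican-6, was 8.59, 8.74 and 8.93 in MSC alone and 6.26 and 6.95 in co-culture, and fell by 2.15 ± 0.26 (SE) on the log2 scale. Sdc2, encoding syndecan-2, was between 11.71 and 12.30 in MSC alone and at 10.73 and 10.25 in co-culture, and fell by 1.46 ± 0.26. Sdc1, encoding syndecan-1, fell by 1.45 ± 0.23, from between 8.87 and 9.45 to 7.88 and 7.61. Sizes varied between probe sets of a gene, with differences of -0.66 to -4.08 in the other 4 of Gpc6 and of -2.90 and -3.35 in the other 2 of Sdc2.

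Csf3 was the 1 higher gene of the list. It encodes G-CSF, a cytokine that mobilises progenitors from marrow when given as a drug and is known to lower marrow CXCL12. Its log2 expression was 4.03, 4.33 and 3.85 in MSC alone replicates 1, 2 and 3, and reached 6.37 and 6.31 with T cells present. It rose by 2.27 ± 0.21 (SE), or 4.83-fold, from a level near the lower end of the table's range, which starts at 2.62. RMA gives no detection call, so the fold of a gene this dim is uncertain. Whether this cytokine gene and Cxcl12 are linked in these cells was not tested.

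The VCAM1 axis was listed as 27 genes for its integrin receptors, its sheddases, its cytoskeletal partners and other adhesion molecules. Of these 6 were in the table, 4 higher and 2 lower, with a median of 0.87. Without Vcam1 itself 3 were higher and 2 lower. Over all named genes 48.3% were higher. Itgb7, encoding the integrin beta7 chain that pairs with alpha4, was 7.43, 7.73 and 6.48 in MSC alone and 9.62 and 9.48 in co-culture. It rose by 2.33 ± 0.38 (SE), or 5.04-fold. The other integrin chains of the VCAM1 receptors, and Icam1, were not analysed here.

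Rdx and Msn, which encode radixin and moesin, linkers between membrane proteins and actin, also lay above. Rdx was between 8.34 and 8.56 in MSC alone and at 9.44 and 9.73 in co-culture, and rose by 1.10 ± 0.19 (SE). Msn was between 10.24 and 10.55 in MSC alone and averaged 11.02 in co-culture, a rise of 0.63 ± 0.18 with an adjusted p of 0.0137 in limma. That call of Msn was lost without MSC alone replicate 2 (adjusted p = 0.0547 in limma) and after quantile normalisation of the table (adjusted p = 0.0575), where the difference was 0.44.

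The lower genes of the axis encode other adhesion receptors. Alcam, an immunoglobulin-type adhesion molecule that binds CD6 on T cells, was between 7.97 and 8.41 in MSC alone and at 7.31 and 7.01 in co-culture. It fell by 1.08 ± 0.22 (SE), and its other 2 probe sets fell by 1.80 and 2.27. Cd44, the hyaluronan receptor, was between 10.84 and 11.29 in MSC alone and at 10.19 and 10.11 in co-culture, and fell by 0.86 ± 0.21. Vcam1 and these adhesion genes thus went in opposite directions in the same arrays.

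Other stromal factors of the blood cell niche were listed as 43 genes, of which 7 were in the table. Among the 7, 4 were higher and 3 lower, with a median of 1.10. Over all named genes 48.3% were higher. Pdgfra and Pdgfrb encode the PDGF receptors that mark stromal cells. Pdgfra was 7.60, 8.40 and 5.93 in MSC alone replicates 1, 2 and 3, and 10.77 and 11.40 in co-culture, and rose by 3.77 ± 0.70 (SE), or 13.7-fold. Pdgfrb was between 10.52 and 11.45 in MSC alone and at 9.13 and 7.86 in co-culture, and fell by 2.55 ± 0.44, or 5.87-fold. The PDGF receptor genes thus went in opposite directions, which is common for any pair of genes in this table.

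Lif, a cytokine gene, rose by 3.08 ± 0.67 (SE) on the log2 scale, from between 4.48 and 6.95 to 8.91 and 8.82. Without MSC alone replicate 3 the rise of Pdgfra was 8.47-fold and that of Lif 5.38-fold. Pdgfrb was 9.11-fold lower without co-culture replicate 1 and 3.78-fold lower without co-culture replicate 2. Runx1, a transcription factor gene of blood formation, rose by 1.77 ± 0.27, and its other probe set rose by 0.87.

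Sparc, a matrix glycoprotein gene, fell by 2.11 ± 0.33 (SE) on the log2 scale and Cdh2, encoding N-cadherin, fell by 1.35 ± 0.25. Kitl, named after its values were seen, encodes stem cell factor, which with CXCL12 is a main stromal signal to blood stem cells. It was 7.21, 7.01 and 6.43 in MSC alone and 7.87 and 8.09 in co-culture, and rose by 1.10 ± 0.27. The other probe set of Kitl rose by 3.59, with 6.60 and 8.84 in the co-culture arrays. Kitl and Cxcl12 therefore differed in direction, and the size of the rise of Kitl rested on the probe set.

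Regulators linked to Vcam1 transcription were listed as 41 genes of NF-kB, interferon and related signalling, with receptors, adaptors and inhibitors among them. The list was not limited to factors shown to act on Vcam1. Of the 41 genes 12 were in the table, and 12 were higher and 0 lower in co-culture, with a median of 1.83. Over all named genes 48.3% were higher, and all probe sets higher in co-culture had a median of 1.07. The other listed genes did not enter this selected table, so their direction is not known here. The interferon signalling genes Irf7, Stat2 and Irf9 rose by 2.85 ± 0.32, 2.62 ± 0.17 and 2.19 ± 0.21 (SE). Nfkbiz and Nfkbib, encoding inhibitor-type NF-kB regulators, rose by 2.38 ± 0.29 and 2.04 ± 0.27, the second read from an _s_at probe set that can bind related transcripts. The other probe set of Nfkbiz rose by 2.97. Cebpd, a C/EBP transcription factor gene, rose by 2.19 ± 0.19 (SE). The smallest rises of the list were 0.71 ± 0.16 for Stat3 and 0.80 ± 0.19 for Tnfrsf1a, which encodes a TNF receptor. Genes of the NF-kB subunits and Irf1 were among the 29 not analysed here. Whether any of these factors acted on Vcam1 was not tested.

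**Figure D3:**
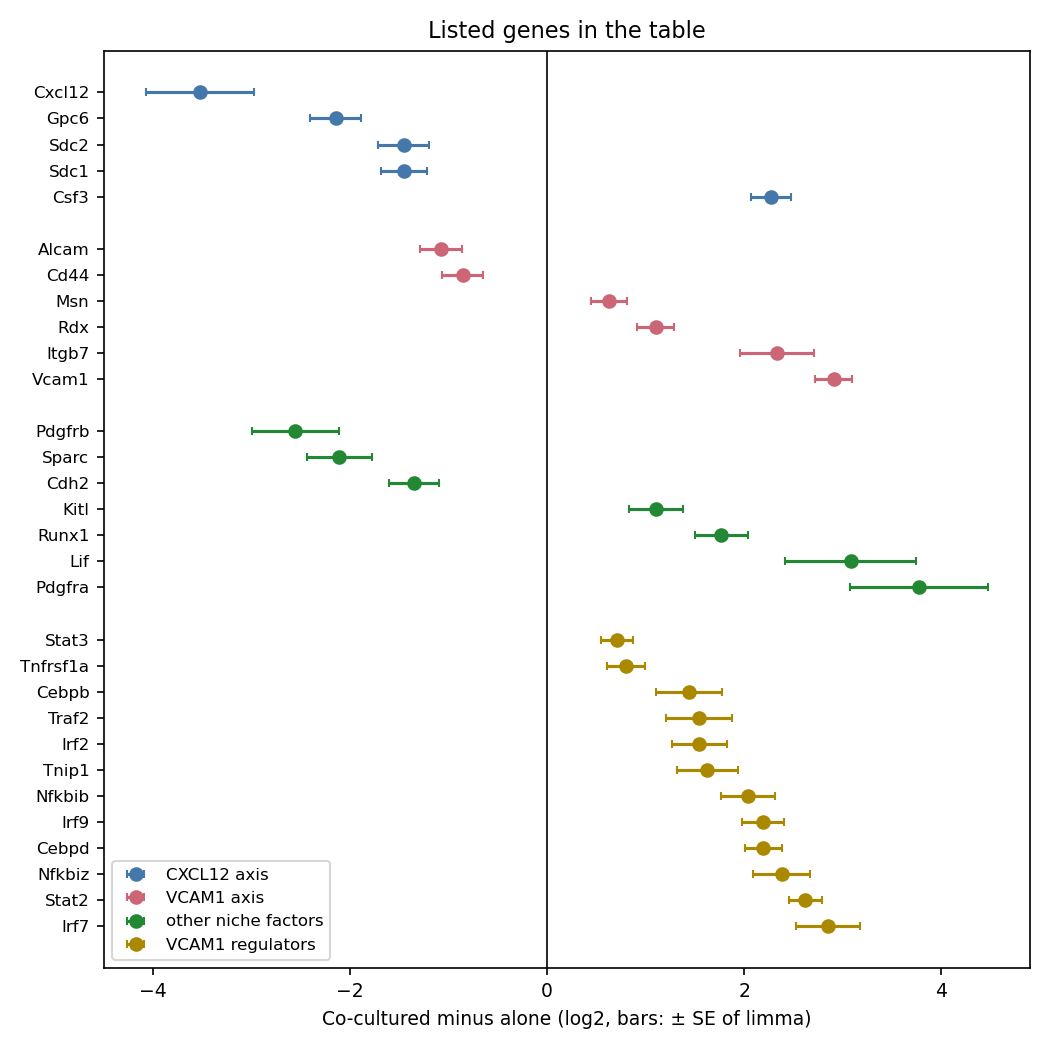
Difference of co-cultured minus alone on the log2 scale (horizontal axis) for each listed gene in the table, by its brightest probe set; points are limma's estimates and bars ± SE, over 3 and 2 arrays. Colours are the 4 lists. The list of VCAM1 regulators holds inhibitor-type NF-kB genes as well as other signalling genes. Its 12 genes in the table all lie right of 0, against 48.3% of all named genes. Cxcl12 at -3.52 is the leftmost point.

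The genes nearest to Cxcl12 in pattern were found by the root mean square difference over the 5 arrays, after the mean of MSC alone was subtracted from each gene. The nearest 5 of 2189 other genes were Mmp16, Rrm2, Gulp1, Bicc1 and Cdon, at 0.24, 0.33, 0.37, 0.40 and 0.42 on the log2 scale, against a median of 1.96. Mmp16 encodes a membrane-type matrix metalloproteinase and Rrm2 a subunit of ribonucleotide reductase; the probe set of Rrm2 ends in _x_at and can bind related transcripts. Mmp16 was 6.76, 6.61 and 8.11 in MSC alone replicates 1, 2 and 3, and 4.17 and 3.77 in co-culture. In each of the 5 genes replicate 3 was the highest array of MSC alone, a feature of the Cxcl12 profile they were matched on. Without that replicate Cdon, a cell-surface receptor gene, was 4.96-fold lower and not 7.95-fold lower.

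The nearest 5 genes to Vcam1 were Ifi213, Dennd6b, Nos2, Stat2 and Oas1a, at 0.16, 0.18, 0.21, 0.21 and 0.23, against a median of 2.23. Nos2 encodes inducible nitric oxide synthase and Oas1a an antiviral oligoadenylate synthetase. Nos2 was 5.47, 5.60 and 5.17 in MSC alone replicates 1, 2 and 3, and 8.70 and 8.46 in co-culture, a rise of 3.17 ± 0.21 (SE). Ifi213 was low in MSC alone, between 3.66 and 3.94, and at 6.34 and 6.96 in co-culture. With 5 arrays in 2 groups, a small distance describes levels only.

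**Figure D4:**
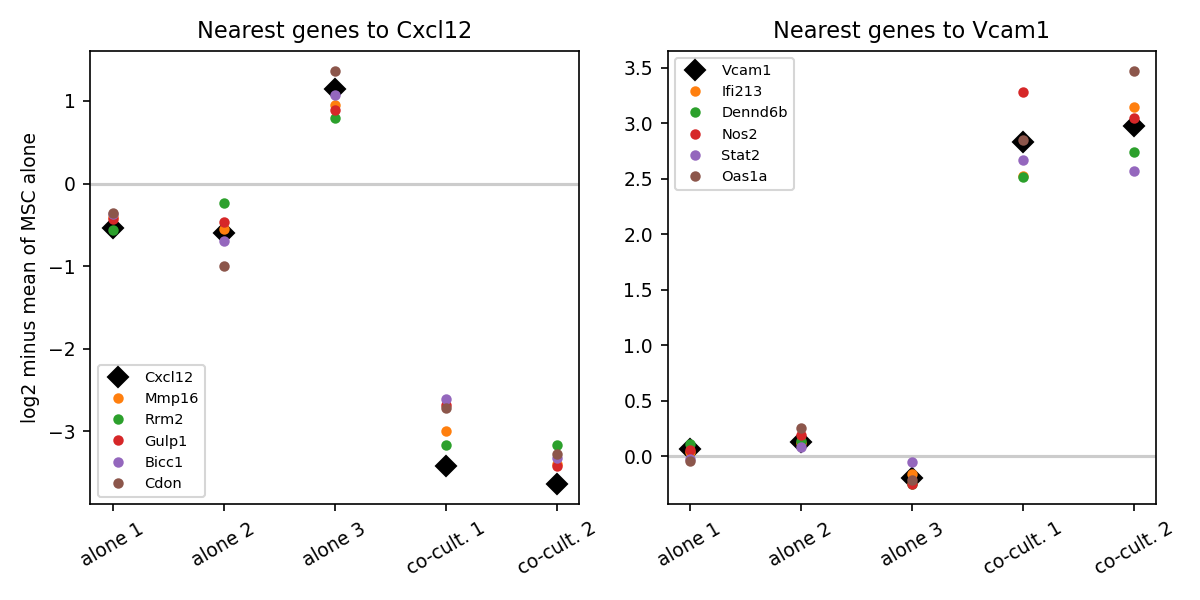
Log2 expression minus the mean of MSC alone (vertical axis) in each array (horizontal axis) for Cxcl12 and Vcam1 (black diamonds) and the 5 genes nearest to each (coloured points). Cxcl12 and its neighbours share a high value in MSC alone replicate 3, where Cxcl12 is 9.74. Vcam1 and its neighbours vary less among the arrays of MSC alone than Cxcl12 does. The neighbours were matched on these profiles.

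Of 14 listed MSC markers 8 were in the table, Cxcl12 and Vcam1 among them. Of the other 6 markers 5 were lower and 1 higher, against 51.7% lower over all named genes. The mean log2 level of these 6 was between 11.61 and 12.01 in MSC alone and 9.94 and 10.21 in co-culture. Col1a1, encoding a fibrillar collagen chain, fell by 3.94 ± 0.27 (SE), and Col3a1, another, fell by 4.67 ± 0.24. The other probe set of Col1a1 fell by 5.13 and that of Col3a1 fell by 6.35. In bulk RNA, fewer cells of a type and less RNA per cell cannot be told apart. Of 15 macrophage markers 2 were in the table, Mpeg1 and Ctss, and 2 were higher, against 48.3% of all named genes. Their mean log2 level was between 3.74 and 4.24 in MSC alone and 7.35 and 8.03 in co-culture. Macrophages can express Vcam1, and Itgb7 is mainly a leukocyte gene; the part of such cells in the values of these genes was not tested. Of 15 T cell and 10 endothelial markers 0 were in the table, and these cell types were not analysed here.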

How the data were processed

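Biotin-labelled cRNA from total RNA was hybridised to Affymetrix arrays. The deposited log2 values were made by the authors with RMA (per the submitters' processing notes; version not given in the sources used here). This method corrects background, quantile-normalises and summarises probes, gives no detection call and compresses low values. The table held 3373 probe sets and not a whole array. Groups came from sample titles; the treatment text of all 5 samples, MSC alone included, describes the co-culture. The supplied platform annotation gave 1 symbol for 3013 probe sets, several for 69 and none for 291, and Entrez identifiers of 3010 were found in RefSeq GRCm38.p6. A gene was represented by its brightest probe set on average.

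Limma 3.58.1 under R 4.3.3 (lmFit, eBayes) was fitted over all probe sets and 5 arrays, without covariates or filter, two-sided, with Benjamini-Hochberg adjustment over the table and a threshold of 0.05. The fit was also run on simulated data with a common spread and mostly unchanged probe sets. That setting differs from this selected table, so the run says nothing about the calls made here. The number of arrays limits the precision. Members, lists and tests were chosen with earlier results of these data known. Named were the members, all measured genes of the CXCL12 and VCAM1 lists, up to 6 with the largest difference of each other list, and the 5 nearest genes; Kitl, Stat3, Tnfrsf1a, Ctss and Mpeg1 were named after their values were seen. Scaling, moderation, filter, adjustment, block and replicates were varied.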

Additional observations from a re-analysis of the deposited data

How the results depend on the processing

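Cxcl12 stayed lower and Vcam1 higher in all 13 alternatives run for each. Only array centring and quantile normalisation could have turned a direction. The others keep the difference as it is or use fewer arrays of groups that do not overlap. The difference lay between -3.83 and -2.95 for Cxcl12 and between 2.81 and 3.07 for Vcam1. Leaving out each array in turn gave the same lower and upper bounds for Cxcl12, 2.81 to 2.98 for Vcam1, between 3116 and 3371 called probe sets, and 5.76 to 6.79 for Vcam1 minus Cxcl12 within arrays; a group left with 1 array was assumed to vary like the other. The call of Vcam1 passed in every alternative (highest adjusted p 0.0129 in limma, without moderation of the spread). That of Cxcl12 was lost in 2 that leave its difference at -3.52 and change only the adjustment for many tests: Holm adjustment (adjusted p = 1 in limma, with 56 probe sets called) and, chosen after seeing the data because the table looks selected, adjustment for 15 times as many tests (adjusted p = 0.0565 in limma, with 415 called); its other alternatives reached from 0.000307 to 0.0335. After median centring of the arrays the differences were -3.36 and 3.07. The groups share replicate numbers 1 and 2, but nothing in the labels pairs them. With the replicate block Cxcl12 fell by 2.95 and Vcam1 rose by 2.81, both still called, and 3365 probe sets were called. Replicate 3 occurs only in MSC alone, so the block takes that array out of the estimate. These differences are therefore the ones found without replicate 3, and only their errors differ. Of the 42 other genes of the lists and nearest patterns 0 changed direction, and the same limit applies to them. Under Holm 36 lost the call, and with 15 times as many tests 25 did. Without moderation Cdon had an adjusted p of 0.0504 in limma. List counts changed by at most 1. Both genes had 1 probe set in the table, so the change of probe sets of 1 gene could not be compared. The table is not a whole array, and any other probe sets of these genes could not be seen.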

Other observations

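Cxcl12 was 1 of 12 genes with an excess of at least 1.72 in replicate 3 of MSC alone over the mean of replicates 1 and 2. Of these 11 were lower in co-culture and 1, Trim30a, was higher, against 51.7% lower over all named genes. An excess in replicate 3 raises the mean of MSC alone, so the choice itself pushes the difference down. The largest excesses were 3.40 for Thbs2, encoding thrombospondin-2, 3.01 for Mgp, encoding matrix Gla protein, and 2.87 for Aspn, encoding asporin, all secreted into the matrix. Ndnf had an excess of 2.80 and Myl9, a myosin light chain gene, of 2.67. These genes were chosen by their values, and the difference between the arrays of MSC alone was not tested.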
